A study of Mus musculus with 4 samples.

Results

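The genes of ubiquitin-mediated proteolysis were described by the accessibility of their promoters in mouse fibroblasts that lack Rela or Kindlin-2. Members were the genes whose KEGG annotation in the Rela table carries the pathway of ubiquitin-mediated proteolysis and not that of the cell cycle, with Birc2 left out. The rule gave 63 genes with 69 regions, of the 28445 regions measured for Rela. Of these genes, 62 genes had a promoter region, defined as a region whose centre lies within 2500 bp of the start of its gene, and 64 such regions entered. Among the 5727 regions measured for Kindlin-2, 24 of these genes had a promoter region, 1 each.

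The values come from ATAC-seq, in which a transposase cuts open chromatin, so that the signal of a region tracks its accessibility. The groups were Rela knockout and Rela wild-type cells, both of the 3T3 line from mouse embryo, and Kindlin-2 knockout and Kindlin-2 floxed fibroblasts, both from mouse kidney. Rela encodes the p65 subunit of NF-kB and Fermt2 is the gene of Kindlin-2, which binds integrin tails. All 4 kinds of cell were grown in the same serum-containing medium, and the labels do not say whether a knockout line is 1 clone. The design text gives 2 biological replicates per genotype, but each genotype has 1 column of normalized signal. No test between genotypes was therefore possible, and no difference below has a replicate check. Intervals in brackets are exact 95% intervals of a ratio for counting error alone. A promoter was called at least 2-fold higher or lower when log2((knockout + 1)/(control + 1)), here called the log2 ratio, was at least 1 in size.

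Signal over the whole Rela table summed to 1458609 in knockout and 1386832 in wild-type cells, and over the nuclear regions of the Kindlin-2 table to 114217 in knockout and 134996 in floxed cells. A further 2 regions, both mitochondrial, held 86.2% of all signal in Kindlin-2 knockout and 91.8% in floxed cells. The promoter of Rela had a signal of 27 in Rela knockout and 21 in wild-type cells. The place of the deletion is not given, so this value tests no label, and no region was assigned to Fermt2. Of 19 fibroblast markers, 12 had a region in the Rela table and 1, Fn1, in the Kindlin-2 table. Regions were assigned to 4 of 17 epithelial, 4 of 10 leukocyte and 0 of 8 endothelial markers in the Rela table, and to 1 leukocyte marker and no epithelial or endothelial one in the Kindlin-2 table. The promoters of the fibroblast markers summed to 607 in Rela knockout and 541 in wild-type cells, those of the epithelial markers to 249 in knockout and 376 in wild-type cells, and those of the leukocyte markers to 86 in knockout and 42 in wild-type cells. The near-equal fibroblast sums held differences of both signs. Of 10 fibroblast promoters 3 were at least 2-fold higher (S100a4, Fbln1 and Postn) and 2 at least 2-fold lower (Fbln2 and Dpt). The epithelial sum was mostly Aqp1 (223 in knockout and 366 in wild-type cells). Krt19 (19 in knockout and 8 in wild-type cells) and Cdh16 (7 in knockout and 2 in wild-type cells) were past 2-fold higher. In the leukocyte sum Laptm5 held 46 in knockout and 8 in wild-type cells, and Cd68 12 in knockout and 14 in wild-type cells. Their part in the results below was not tested.

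Ubiquitin is a small protein that is attached to other proteins as a tag, and chains of it send many of them to the proteasome for breakdown. An E1 enzyme activates ubiquitin, an E2 enzyme carries it, and an E3 ligase chooses the substrate. E3 ligases of the HECT type take ubiquitin onto themselves before passing it on, whereas RING-finger and U-box ligases bring the loaded E2 to the substrate, and cullin-RING ligases do so through exchangeable substrate receptors. The same machinery acts in NF-kB signalling: chains built by Traf6 and Ube2n activate the upstream kinases, and the receptor encoded by Btrc marks the inhibitor of NF-kB for breakdown.

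The first question was how these promoters differ between Rela knockout and wild-type 3T3 cells. Of 64 promoters 55 lay within 2-fold, although for 24 of these the counting interval of the ratio excluded 1. In the knockout 5 (7.81%) were at least 2-fold higher (Park2, Ube2d1, Uba6, Fancl and Siah1b). Another 4 (6.25%) were lower by 2-fold or more (Stub1, Ube2q2, Rhobtb2 and a second region of Cblb). The 9 promoters past 2-fold were 14.1% of the members. Among all 6879 promoter regions of protein-coding genes, the share past 2-fold was 22.8%, with 11.1% higher and 11.6% lower. It was 26.1% over all 8061 promoter regions (13% higher and 13.1% lower) and 43.3% over all 28332 regions (22.4% higher and 21% lower). Promoters of genes with any KEGG pathway gave 22.1%, with 10.8% higher and 11.4% lower. The median log2 ratio of the members was 0.18, with quartiles of -0.44 and 0.50. For protein-coding promoters the median was -0.03, with quartiles of -0.54 and 0.49. No test of the list was made, and these values describe the pair of columns. The counting interval of the ratio lay wholly above 1 for 17 members (26.6%) and wholly below 1 for 16 (25%), together 51.6%. Of protein-coding promoters 25.7% lay wholly above and 25.9% wholly below 1, together also 51.6%.

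**Figure D1:**
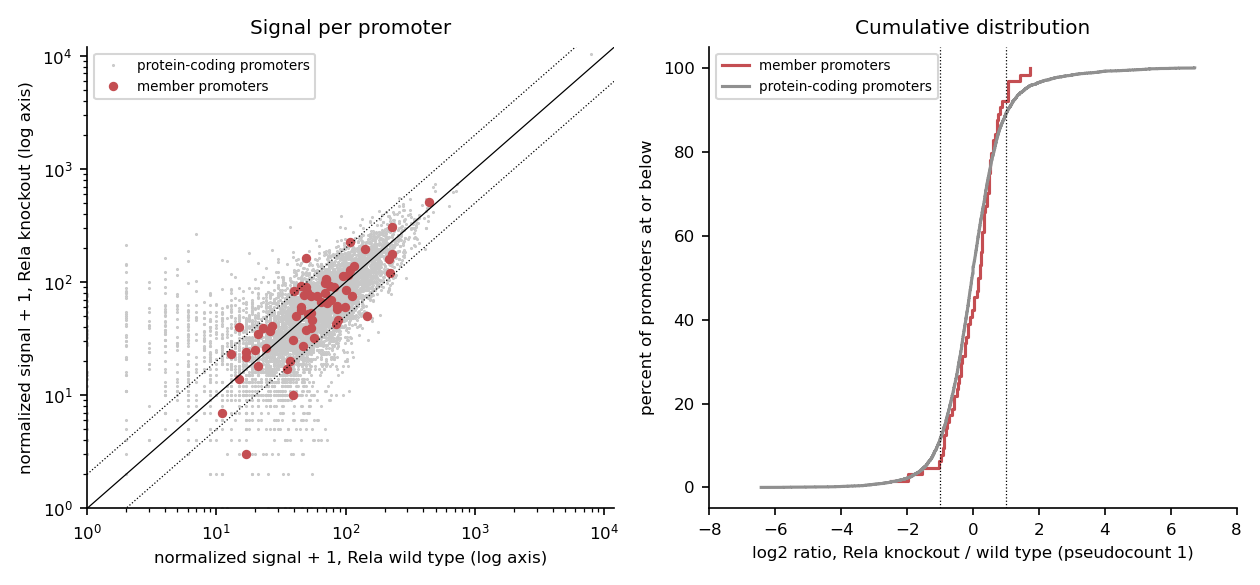
Left, normalized signal plus 1 of each promoter in Rela knockout cells (vertical, log axis) and Rela wild-type cells (horizontal, log axis), with the 64 member promoters in red over the 6879 protein-coding promoters in grey; dotted lines mark 2-fold. Right, the cumulative percent of promoters by log2 ratio, where 9 of 64 members lie outside the dotted lines at -1 and 1.

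Among protein-coding promoters the share past 2-fold was larger where signal was weak. Member promoters had a median signal of 59 in Rela knockout and 53 in wild-type cells, and protein-coding promoters 55 in both. In the middle classes of mean signal, from 20 to 50 and from 50 to 100, 3 of 17 and 3 of 28 members were past 2-fold, or 17.6% and 10.7%. The matching shares of protein-coding promoters were 30.6% and 17.2%. In the strongest class, from 100 upwards, the order was the other way, with 2 of 12 members (16.7%), Uba6 and Park2, beside 8.19% of protein-coding promoters.

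Counts by role here and below stand beside 55 of 64 members within 2-fold and 22.8% of protein-coding promoters past it. E1 enzymes start the cascade, and all 3 of the rule had a promoter region. The promoter of Uba6, which activates both ubiquitin and the ubiquitin-like protein FAT10, held 224 in Rela knockout and 107 in wild-type cells. Its ratio of 2.09 (1.70 to 2.57) rested on some of the strongest signal among the members. The log2 ratio of 1.06 lay close to the threshold and was 0.94 once set against the 50 nearest regions, 0.97 after quantile and 0.99 after loess scaling. Uba1, which encodes the main ubiquitin E1, held 23 in knockout and 16 in wild-type cells (ratio 1.44, 0.784 to 2.69). Uba3, the catalytic subunit of the E1 for NEDD8, held 30 in knockout and 38 in wild-type cells (ratio 0.789, 0.498 to 1.25). Both intervals include 1.

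Of 19 E2 promoters 1 was at least 2-fold higher, 1 at least 2-fold lower and 17 within 2-fold, with a median log2 ratio of 0.12. Ube2d1, one of the closely related E2 enzymes that serve many RING ligases, held 39 in Rela knockout and 14 in wild-type cells, a ratio of 2.79 (1.63 to 5.13). Its log2 ratio of 1.42 stood against a median of -0.58 over all regions of chromosome 10, and was 2.00 with that chromosome centred. The related Ube2d2 held 24 in knockout and 19 in wild-type cells, and Ube2d3 held 160 in knockout and 216 in wild-type cells. The log2 ratios of this family thus had both signs. The promoter of Ube2q2, an E2 gene, was the lowest of the group, with 9 in knockout and 38 in wild-type cells, 4.22-fold lower (2.20 to 10.3). The 50 regions nearest to Ube2q2 had a median of -0.85, and against them its log2 ratio of -1.96 was -1.12.

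Other E2 promoters came near 2-fold without passing it. Ube2s, which extends chains for the anaphase-promoting complex, held 90 in Rela knockout and 48 in wild-type cells (ratio 1.88, 1.37 to 2.61). Its 50 nearest regions had a median of 1.10, and against them its log2 ratio of 0.89 turned to -0.21. Cdc34, the E2 of SCF-type cullin ligases, held 42 in knockout and 83 in wild-type cells, and Ube2n, which builds the lysine-63-linked chains of NF-kB signalling, held 45 in knockout and 86 in wild-type cells. These were 1.98-fold lower (1.40 to 2.89) and 1.91-fold lower (1.37 to 2.76). Both lie on chromosome 10, and against their 50 nearest regions the log2 ratios of -0.97 and -0.92 became -0.09 and -0.03. Ube2m and Ube2f, the E2 enzymes of NEDD8, held 106 and 45 in knockout and 70 and 54 in wild-type cells. Both were within 2-fold.

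The RefSeq promoter windows (build GRCm38.p6) of the 4 members past 2-fold whose window overlapped the measured region are shown as examples of the sequence at called promoters, and those of the other members past 2-fold are not shown. The bases are those before the start where RefSeq annotates no gene, which for Ube2d1 are the ones from 250 to 123 bases upstream. Capitals mark the motifs searched, named after the sequences, and a match is a description of the letters only. Ube2q2 lies at chr9:55149119-55149368 on the plus strand, Ube2d1 at chr10:71285385-71285512 on the minus strand, Stub1 at chr17:25832920-25833169 on the minus strand and Siah1b at chrX:164076494-164076743 on the minus strand.
Ube2q2: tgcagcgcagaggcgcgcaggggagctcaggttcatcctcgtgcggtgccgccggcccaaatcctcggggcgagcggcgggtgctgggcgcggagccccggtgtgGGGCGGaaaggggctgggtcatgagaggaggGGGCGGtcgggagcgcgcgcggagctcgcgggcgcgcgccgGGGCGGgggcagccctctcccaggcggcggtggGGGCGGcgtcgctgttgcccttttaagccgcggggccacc
Ube2d1: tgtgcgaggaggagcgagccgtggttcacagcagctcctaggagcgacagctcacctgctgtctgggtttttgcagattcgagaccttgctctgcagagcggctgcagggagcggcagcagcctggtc
Stub1: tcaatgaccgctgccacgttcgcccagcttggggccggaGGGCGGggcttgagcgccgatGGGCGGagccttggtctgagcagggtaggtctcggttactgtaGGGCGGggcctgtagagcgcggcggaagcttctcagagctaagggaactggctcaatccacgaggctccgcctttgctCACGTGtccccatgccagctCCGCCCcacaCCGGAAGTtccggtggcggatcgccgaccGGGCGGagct
Siah1b: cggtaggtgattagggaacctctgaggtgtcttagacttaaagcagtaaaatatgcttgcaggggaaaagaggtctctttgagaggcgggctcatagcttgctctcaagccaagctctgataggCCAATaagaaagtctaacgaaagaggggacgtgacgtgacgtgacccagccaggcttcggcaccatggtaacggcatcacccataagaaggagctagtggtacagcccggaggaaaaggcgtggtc

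The Ube2q2 stretch holds the SP1 box GGGCGG several times, and 51 of its 250 bases lie inside the measured region. The Stub1 stretch holds that box, the ETS letters CCGGAAGT and the E-box CACGTG, and all 250 bases lie inside the region. In Siah1b the CCAAT box of NF-Y is marked, with 223 of 250 bases inside the region. The 128 bases shown for Ube2d1 hold none of the motifs searched. The RefSeq windows of Ube2d1 and Siah1b also hold the SP1 box, outside the stretches shown, so the box is in the window of each of these genes. None of these stretches held a match to the NF-kB site or to the AP-1 letters TGANTCA, which says only that these letters are not in these stretches.

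All 10 promoters of HECT-type ligases lay within 2-fold, as did 55 of all 64 members. The strongest by mean signal was Ube3c, with 138 in Rela knockout and 115 in wild-type cells. Ube3a, the ligase gene of Angelman syndrome, held 112 in knockout and 94 in wild-type cells. Herc2, a giant ligase of DNA repair, held 114 in knockout and 103 in wild-type cells. Herc3 held 34 in knockout and 20 in wild-type cells, and Nedd4l, Smurf1 and Wwp1 had log2 ratios from 0.15 to 0.52. Herc4 and Huwe1 were the lower pair, with 31 and 59 in knockout and 56 and 98 in wild-type cells, and intervals below 1 (ratios 0.554, 0.361 to 0.847, and 0.602, 0.440 to 0.817). Against the nearest regions the log2 ratio of Herc4 turned to 0.17, and that of Huwe1 was -0.53.

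U-box ligases were represented by Stub1 and Prpf19. The promoter of Stub1, which encodes the chaperone-associated ligase CHIP, held 49 in Rela knockout and 145 in wild-type cells. It was 2.96-fold lower, with an interval (2.16 to 4.05) wholly past 2-fold. The 50 nearest regions had a median of -0.72 and chromosome 17 one of -0.56, and the Stub1 log2 ratio of -1.55 became -0.83 and -0.98 when centred on them. Prpf19, a ligase of the spliceosome, held 79 in knockout and 68 in wild-type cells, within 2-fold.

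The 12 single RING-finger ligase genes, with 14 of the 64 promoter regions, held 3 of the 5 higher and 1 of the 4 lower promoters. Their median log2 ratio was -0.14, with 6 of the 14 regions above 0. Their log2 ratios ran from -2.50 to 1.74. The lowest was a weak region of Cblb (2 in Rela knockout and 16 in wild-type cells), and the next was Trim37 at -0.89. The E2 promoters ran from -1.96 to 1.42. Park2, which encodes the mitochondrial quality-control ligase parkin, had the highest ratio of all members, with 163 in Rela knockout and 48 in wild-type cells (ratio 3.40, 2.57 to 4.57). It was the 1 higher promoter whose interval lay wholly above 2-fold. Its log2 ratio of 1.74 was 2.31 with chromosome 17 centred. Park2 and Stub1 lie on the same chromosome and differed in opposite directions. Fancl, the ligase of the Fanconi anaemia pathway, held 82 in knockout and 39 in wild-type cells at a region 1300 bp from its start (ratio 2.10, 1.48 to 2.98). Its log2 ratio of 1.05 was 0.90 against the nearest regions and 0.86 with its chromosome centred. Siah1b held 92 in knockout and 44 in wild-type cells (ratio 2.09, 1.52 to 2.93). The 50 regions nearest to Siah1b, on chromosome X, had a median of 1.25, so that its log2 ratio of 1.05 turned to -0.20 against them.

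Among the other RING ligases, Traf6 held 69 in Rela knockout and 76 in wild-type cells, a ratio of 0.908 (0.671 to 1.24). Rchy1, a ligase for p53, held 119 in knockout and 218 in wild-type cells over a region 3429 bp wide, 1.83-fold lower (1.49 to 2.28). Trim37 held 19 in knockout and 36 in wild-type cells, Cbl 61 in knockout and 85 in wild-type cells, and Rfwd2, encoding COP1, 37 in knockout and 48 in wild-type cells at the region nearest its start. Syvn1, the ligase of endoplasmic reticulum quality control, held 40 in knockout and 26 in wild-type cells, Pias3, a SUMO ligase gene, 91 in knockout and 75 in wild-type cells, and Trim32 64 in knockout and 71 in wild-type cells. All of these were within 2-fold.

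Cullins and their core partners were within 2-fold at all 5 promoters, as were 55 of all 64 members. Eloc and Elob, which encode the elongin C and elongin B adaptors that work as a pair, differed in opposite directions, with 196 and 57 in Rela knockout and 141 and 85 in wild-type cells (ratios 1.39, 1.15 to 1.70, and 0.671, 0.486 to 0.922). Against their nearest regions both log2 ratios were below 0, at -0.03 for Eloc and -0.28 for Elob. Ddb1, the adaptor of Cul4 ligases, held 76 in knockout and 47 in wild-type cells. Rnf7, a RING-box protein, held 38 in knockout and 22 in wild-type cells. Its log2 ratio of 0.76 was 1.01 with its chromosome centred, past 2-fold. Cul3 held 84 in knockout and 100 in wild-type cells, with an interval of the ratio that includes 1 (0.643 to 1.11). Against its nearest regions the log2 ratio of Cul3 went from -0.25 to -1.01, past 2-fold.

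Of 11 substrate receptor promoters 1 was past 2-fold. Rhobtb2, a partner of Cul3, held 16 in Rela knockout and 34 in wild-type cells, 2.13-fold lower (1.20 to 3.92). Against the nearest regions its log2 ratio of -1.04 was -0.28, and it was also within 2-fold with chromosomes centred (-0.76) and after loess scaling (-0.99). Btrc held 75 in knockout and 53 in wild-type cells (ratio 1.42, 1.02 to 1.95), and its paralogue Fbxw11 held 52 in knockout and 53 in wild-type cells. The F-box genes Fbxw7 and Fbxo4 held 103 and 74 in knockout and 70 and 112 in wild-type cells. Socs1, a suppressor of cytokine signalling, had the strongest member promoter, with 509 in knockout and 438 in wild-type cells over a region 5037 bp wide. Socs3 held 49 in knockout and 40 in wild-type cells. Vhl, the receptor for hypoxia-inducible factors, held 38 in knockout and 53 in wild-type cells. Klhl9, Det1 and Ddb2 had log2 ratios from -0.22 to 0.51.

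**Figure D2:**
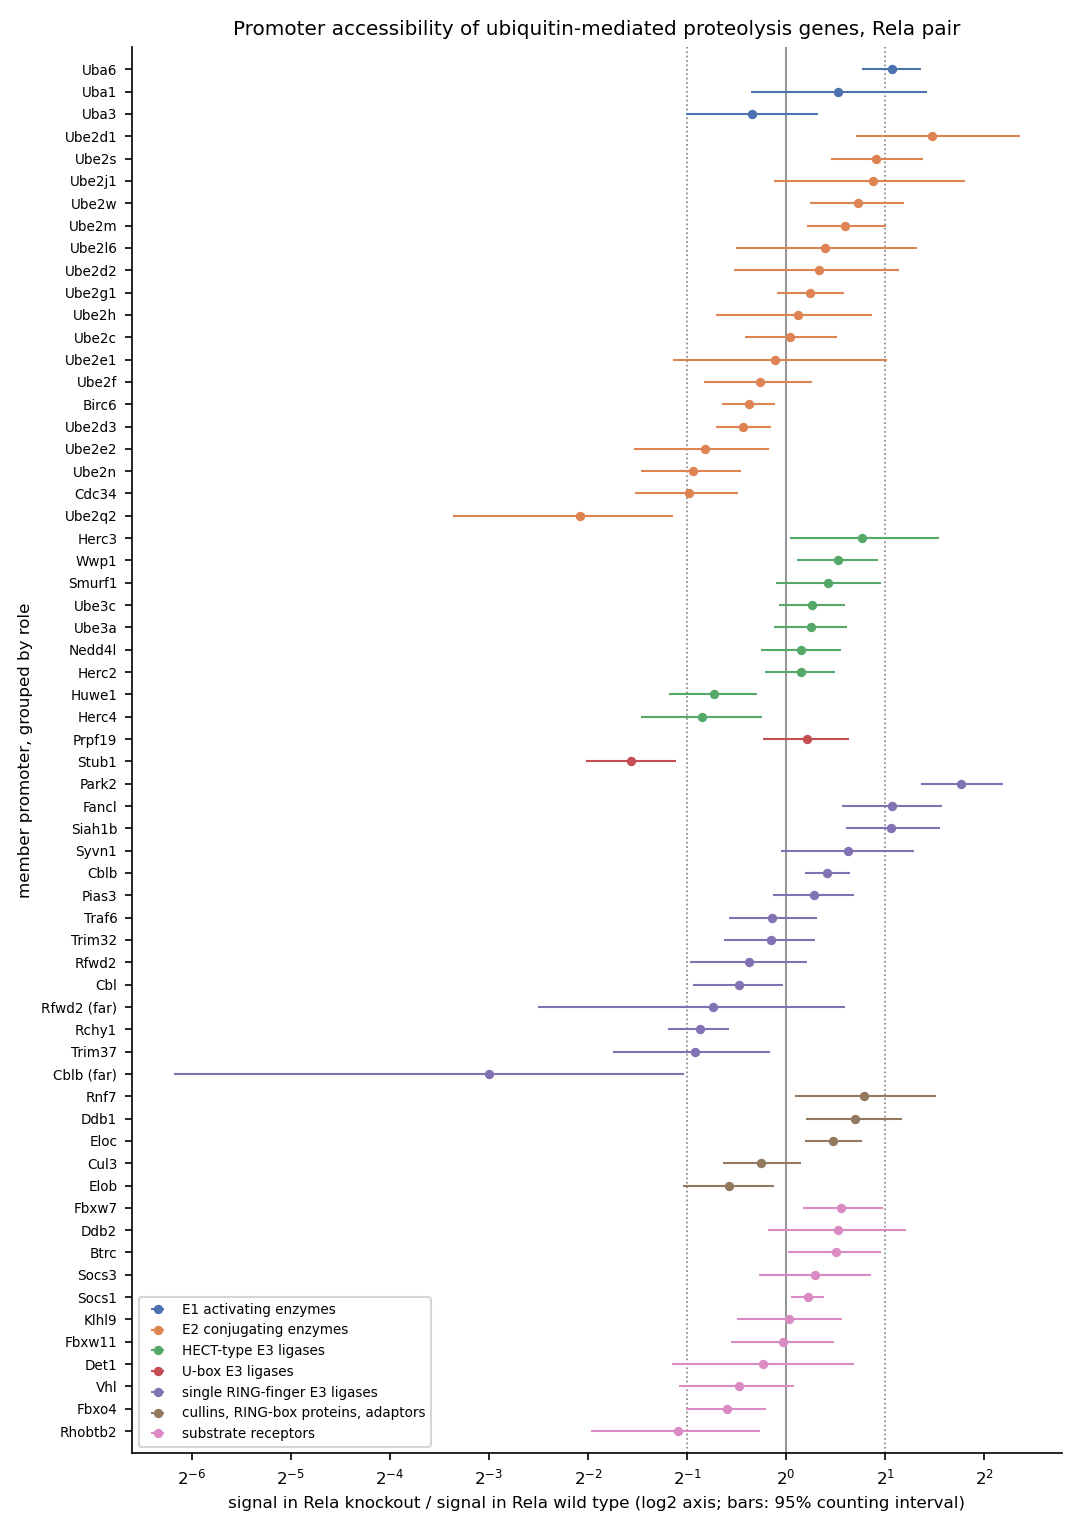
Ratio of normalized signal in Rela knockout over Rela wild-type cells (horizontal, log2 axis) for 62 of the 64 member promoters (vertical), coloured by role; points are the ratio, bars its 95% counting interval, and dotted lines mark 2-fold, with "far" for the more distant of a gene's regions. Park2 is highest at 3.40 and the distant Cblb region lowest, while the HECT-type promoters shown and all 5 cullin-group promoters lie between the dotted lines. Of all 64 members 55 were within 2-fold.

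Of the genes with several regions, Cblb and Birc6 had 1 region past 2-fold and 1 within. Cblb, a ligase that restrains receptor signalling, held 306 in Rela knockout and 229 in wild-type cells at 50 bp from its start (ratio 1.34, 1.14 to 1.56). At 2224 bp from that start a region of 189 bp held 2 in knockout and 16 in wild-type cells, 8-fold lower with a wide interval (2.05 to 72.4). Birc6, a giant enzyme that joins E2 and E3 activity and blocks apoptosis, held 176 in knockout and 228 in wild-type cells at its promoter, a ratio of 0.772 (0.640 to 0.924). Its second region, on chromosome 17 from 74523157 to 74523578 and 4927 bp from the start, was 9.78-fold lower in the knockout (5.27 to 23.1), with a signal of 9, against 88 in wild-type cells. Against their nearest regions, the near Cblb region turned from a log2 ratio of 0.42 to -0.31 and the Birc6 promoter from -0.37 to 0.14, while the distant regions stayed lower, at -3.23 and -2.71. The distant Birc6 region lies beyond the limit for promoters and is in none of the counts. The pairs of regions of Herc3, Fbxw11, Rfwd2 and Uba1 were within 2-fold.

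**Figure D3:**
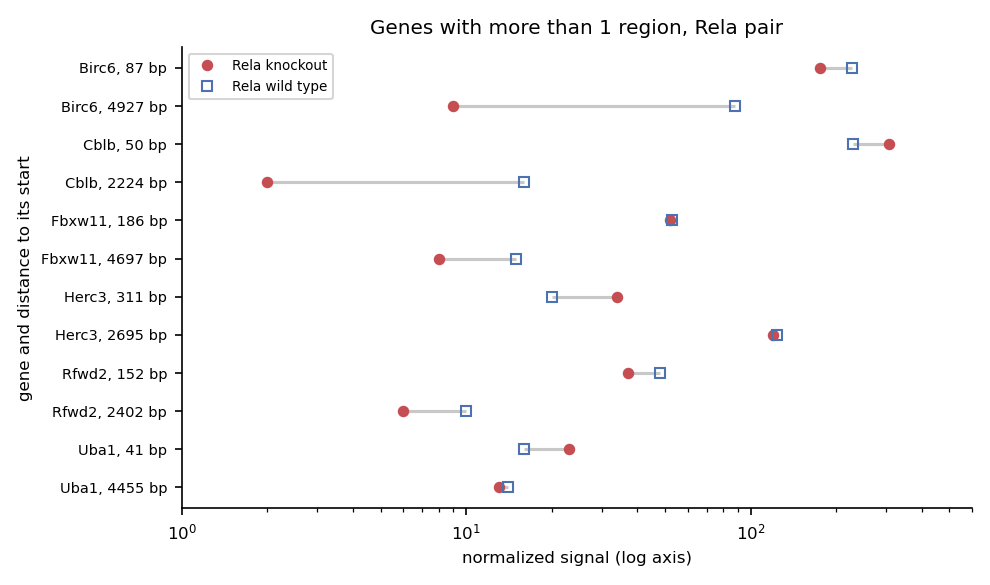
Normalized signal (horizontal, log axis) in Rela knockout (filled circles) and Rela wild-type cells (open squares) for each region of the 6 members with more than 1 region, labelled by distance from the region's centre to the gene's start. The distant regions of Birc6 and Cblb are lower in the knockout, at 9 and 2, against 88 and 16 in wild-type cells, whereas the near regions of both lie within 2-fold.

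The limit of 2500 bp bears on few members. Just inside it were regions of Huwe1 at 2424 bp (59 in Rela knockout and 98 in wild-type cells) and of Rfwd2 at 2402 bp (6 in knockout and 10 in wild-type cells). Just outside were Cul5 at 2670 bp (43 in knockout and 70 in wild-type cells), which has no other region, and a region of Herc3 at 2695 bp (120 in knockout and 124 in wild-type cells). All 4 were within 2-fold.

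The second question was how the promoters differ between kidney fibroblasts that lack Kindlin-2 and floxed ones. Of the 24 members measured, 4 (16.7%) were higher by 2-fold or more in the knockout (Herc3, Socs1, Eloc and Ube2d2), 4 (16.7%) were lower by 2-fold or more (Fbxo4, Ddb1, Fbxw7 and Rchy1) and 16 were within 2-fold. The 8 past 2-fold were 33.3% of the members, beside 19.1% of 2423 protein-coding promoters (8.25% higher and 10.9% lower), 19.6% of all promoter regions (9.06% higher and 10.6% lower) and 25.4% of all regions (16.2% higher and 9.27% lower). Signal was lower in this table, with member medians of 17 in knockout and 19.5 in floxed cells. The interval excluded 1 for 6 of 24 members, or 25%, wholly above 1 for 1 (4.17%) and wholly below for 5 (20.8%). Of protein-coding promoters it excluded 1 for 16.8%, above for 3.67% and below for 13.1%. Of the 8 past 2-fold these were 4: Eloc, Fbxo4, Ddb1 and Fbxw7. The median log2 ratio was -0.07, and -0.17 over protein-coding promoters.

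Eloc was the 1 higher promoter whose interval excluded 1, with 48 in Kindlin-2 knockout and 20 in floxed cells, a ratio of 2.40 (1.29 to 4.52). Fbxo4 held 16 in knockout and 35 in floxed cells (2.19-fold lower, 1.14 to 4.41), and Fbxw7, a receptor for cyclin E and MYC, 18 in knockout and 38 in floxed cells (2.11-fold lower, 1.13 to 4.06). Ddb1 held 14 in knockout and 30 in floxed cells (2.14-fold lower, 1.05 to 4.52). Each of these 4 differences fell within 2-fold under at least 1 other scaling or centring tried. With each region set against its 50 nearest, the log2 ratios were 0.93 for Eloc, -0.99 for Fbxo4, -0.97 for Fbxw7 and -0.91 for Ddb1. The promoter stretch of Fbxo4 is shown as that of the member with the lowest log2 ratio in this pair, at chr15:3979574-3979823 (GRCm38.p6, minus strand), with 72 of its 250 bases inside the measured region and none of the searched motifs in it. The AP-1 letters TGANTCA are in its RefSeq window outside the stretch shown, in 1 of 45 member windows searched.
Fbxo4: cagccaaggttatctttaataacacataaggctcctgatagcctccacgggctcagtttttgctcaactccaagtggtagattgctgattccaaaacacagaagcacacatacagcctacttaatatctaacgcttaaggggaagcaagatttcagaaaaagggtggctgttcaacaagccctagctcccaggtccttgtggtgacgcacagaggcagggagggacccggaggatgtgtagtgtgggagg

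The other promoters past 2-fold rested on weak signal. Herc3, a HECT-type ligase gene, held 12 in Kindlin-2 knockout and 3 in floxed cells (ratio 4, 0.981 to 40.6), and Socs1 held 13 in knockout and 4 in floxed cells (ratio 3.25, 0.875 to 17.4). Ube2d2 held 11 in knockout and 5 in floxed cells, and Rchy1 held 5 in knockout and 11 in floxed cells, which placed both exactly at the threshold. The intervals of these 4 include 1. After loess scaling Herc3, Socs1 and Ube2d2 were within 2-fold, with log2 ratios of 0.71, 0.76 and 0.29.

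The strongest member promoters in the kidney cells were those of the E2 genes Birc6 and Ube2n. Birc6 held 56 in Kindlin-2 knockout and 98 in floxed cells (1.75-fold lower, 1.22 to 2.53), and Ube2n 42 in knockout and 75 in floxed cells (1.79-fold lower, 1.17 to 2.73). Both intervals exclude 1, although neither promoter reached 2-fold. Ube2d3 held 37 in knockout and 39 in floxed cells, and Uba6, the 1 E1 gene measured, 46 in knockout and 48 in floxed cells. Ube2c, the mitotic E2, held 20 in knockout and 19 in floxed cells and Ube2w 18 in knockout and 15 in floxed cells. The intervals of these 4 include 1. The same holds for Cblb (48 in knockout and 35 in floxed cells), Elob (29 in knockout and 26 in floxed cells), Cul3, Wwp1, Herc2, Herc4, Fancl, Siah1b, Ddb2 and Ube2e1. No U-box ligase gene had a promoter region in this table.

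**Figure D4:**
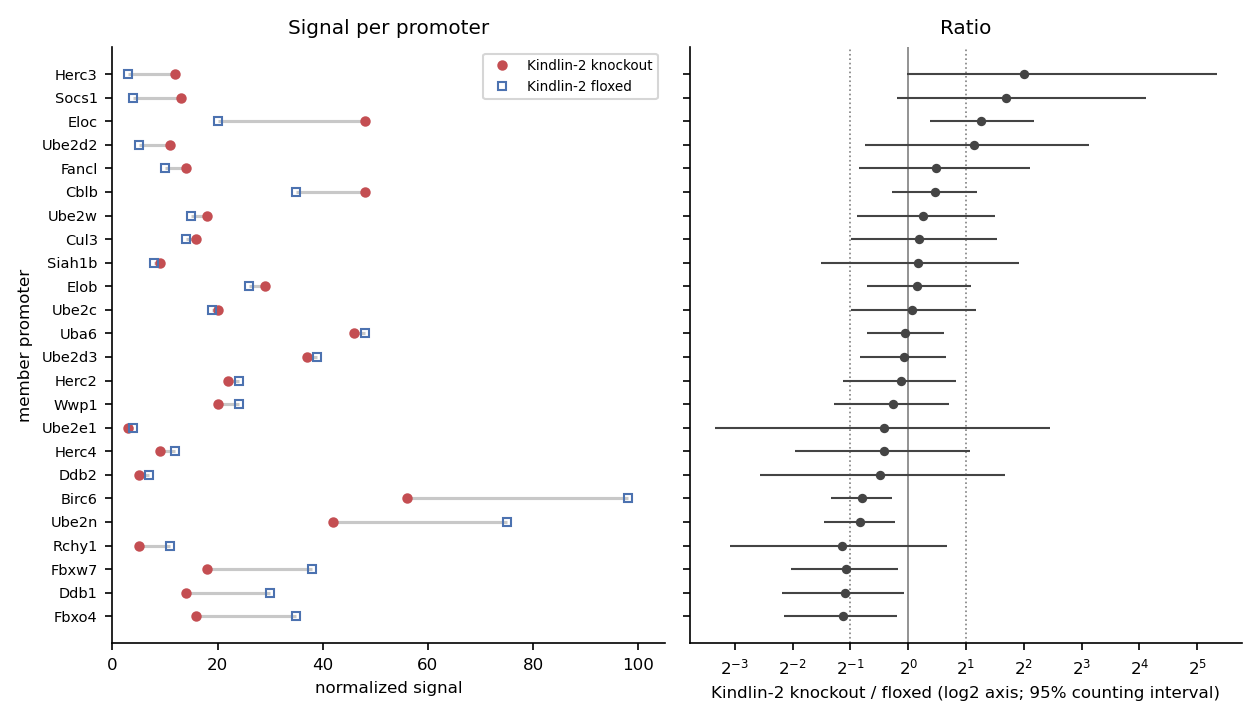
Left, normalized signal of the 24 member promoters (vertical) in Kindlin-2 knockout (filled circles) and Kindlin-2 floxed cells (open squares). Right, the ratio of knockout over floxed cells on a log2 axis with its 95% counting interval; dotted lines mark 2-fold, and the intervals of Eloc, Birc6, Ube2n, Fbxw7, Ddb1 and Fbxo4 exclude 1.

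The tables were normalized separately, so their levels were not compared, but the ratios of the 24 shared members can be set side by side. The pairs have no samples in common. Of the 62 members with a promoter for Rela, 38.7% also had one in the Kindlin-2 table, beside 32.4% of 6574 protein-coding genes. In 23 of 24 the regions overlapped by at least 1 bp, the exception being Ube2e1. At the regions compared, Fancl, Siah1b and Uba6 were past 2-fold in the Rela pair and 8 members in the Kindlin-2 pair. No member was past 2-fold in both pairs. The matching share over all genes with a promoter in both tables was not worked out. This count and the signs below therefore describe these 24 genes only. Both log2 ratios were above 0 for 9 genes, among them Herc3, Eloc and Fancl, and both below 0 for 7, among them Ube2n, Rchy1, Fbxo4, Herc4 and Birc6. They differed in sign for 8, of which Ddb1 and Fbxw7 were 2-fold lower without Kindlin-2 and had log2 ratios of 0.68 and 0.55 without Rela. As a description across genes, which are not independent replicates, Pearson's r was 0.405 and Spearman's rho 0.397 (n = 24).

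**Figure D5:**
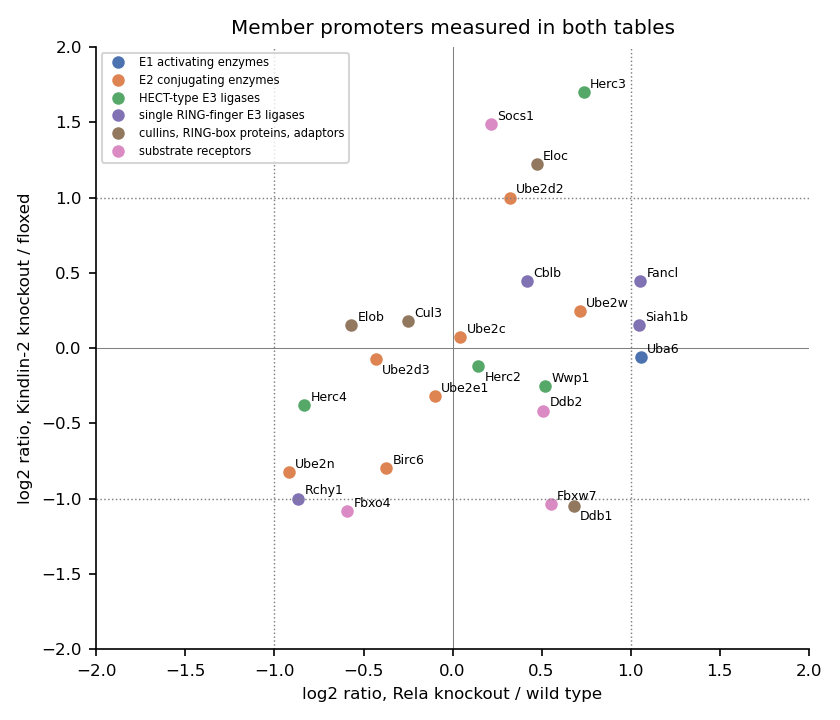
Log2 ratio of Kindlin-2 knockout over floxed cells (vertical) and of Rela knockout over wild-type cells (horizontal) for the 24 members with a promoter in both tables, coloured by role; of Cblb the region nearest the start is shown. Dotted lines mark 2-fold, and no gene lies past them on both axes, which describes these 24 genes only.

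Genes around the pathway gave a mixed picture. Their counts stand beside 11.1% of protein-coding promoters higher and 11.6% lower in the Rela pair. Of 10 pathway genes outside the rule with a promoter in the Rela table (those shared with the cell cycle, and Birc2), 2 were lower and 0 higher: Mdm2, the ligase for p53, with 51 in Rela knockout and 137 in wild-type cells, and the scaffold gene Cul1, with 44 in knockout and 92 in wild-type cells. With each chromosome centred both were within 2-fold, at log2 ratios of -0.83 for Mdm2 and -0.88 for Cul1. Against their nearest regions Mdm2 stayed just past 2-fold, at -1.003, and Cul1 was at -0.68. The proteasome, which degrades the tagged proteins, had 23 promoters, 3 higher and 6 lower. Its largest differences were at Psmb2 (55 in knockout and 12 in wild-type cells), Psma6 (12 in knockout and 45 in wild-type cells), Psma4 (12 in knockout and 40 in wild-type cells) and Psmc1 (22 in knockout and 65 in wild-type cells). The 9 proteasome promoters past 2-fold had mean signals from 16 to 43.5. Of protein-coding promoters with a mean signal under 20 and from 20 to 50, 46.4% and 30.6% were past 2-fold. Against its nearest regions the log2 ratio of Psma4 was -0.81, within 2-fold.

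Deubiquitinating enzymes remove the tag, and of their 37 promoters 5 were higher and 1 lower in the Rela pair. Of protein-coding promoters in that pair 11.1% were higher and 11.6% lower, 22.8% together. Both regions of Cyld, a brake on NF-kB signalling, were higher, with 358 and 26 in Rela knockout and 133 and 4 in wild-type cells (ratios 2.69, 2.25 to 3.21, and 6.5, 2.53 to 18.5). The 50 nearest regions had a median of 1.12, and against them the log2 ratio of 1.42 at the stronger Cyld region became 0.30, within 2-fold, and that of 2.43 at the weaker one 1.31. Usp16 held 80 in knockout and 29 in wild-type cells and Stambp 38 in knockout and 16 in wild-type cells, with log2 ratios of 0.78 and 1.11 against their nearest regions. The lower promoter was that of Usp34, with 21 in knockout and 44 in wild-type cells. Tnfaip3, of the same list, held 43 in knockout and 85 in wild-type cells. It was 1.98-fold lower (1.40 to 2.86), within 2-fold. Of 4 promoters of ubiquitin and related genes, Sumo3 was lower (3 in knockout and 12 in wild-type cells). A further 10 promoter regions belonged to 8 genes of the same enzyme classes that lack the KEGG entry, 1 higher and 3 lower, namely Tnfaip1 (79 in knockout and 36 in wild-type cells), Mid2 (2 in knockout and 38 in wild-type cells), Klhl42 (23 in knockout and 96 in wild-type cells) and 1 of 2 regions of Siah2 (9 in knockout and 30 in wild-type cells). The other Siah2 region, 161 bp from the start, went the other way, with 62 in knockout and 31 in wild-type cells (log2 ratio 0.98). Against their nearest regions Tnfaip1 and Sumo3 were within 2-fold, with log2 ratios of 0.46 and -0.99.

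In the Kindlin-2 table the same lists had few regions. Their counts stand beside 8.25% of protein-coding promoters higher and 10.9% lower in the Kindlin-2 pair. Of 3 pathway genes outside the rule, Anapc4, a subunit of the anaphase-promoting complex, was lower (13 in Kindlin-2 knockout and 34 in floxed cells), as was Birc2 (17 in knockout and 42 in floxed cells), although the log2 ratio of Birc2 was within 2-fold against its nearest regions, at -0.83. Of 15 deubiquitinating enzymes, Usp25 (20 in knockout and 8 in floxed cells) and Usp42 (19 in knockout and 8 in floxed cells) were higher and Usp53 was lower (50 in knockout and 103 in floxed cells). Psmc6 was the 1 of 5 proteasome promoters past 2-fold, at the threshold, with 15 in knockout and 31 in floxed cells. The Usp25 promoter was at least 2-fold higher in both pairs, with 93 in Rela knockout and 44 in Rela wild-type cells, although its interval in the Kindlin-2 pair includes 1 (0.949 to 7.45). Against the nearest regions its log2 ratio of 1.22 in the Kindlin-2 pair was 0.84 and that of 1.06 in the Rela pair 0.09, so that neither call held.

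The member promoters resembled other open promoters in width, GC content and nearby starts on the opposite strand. Their regions in the Rela table had a median width of 561.5 bp, against 538 bp for protein-coding promoters. They lay a median of 146.5 bp from the start, against 137 bp, but the limit of 2500 bp bounded this distance in both lists. A RefSeq window from 250 bases before to 50 after the start was matched to 51 of 63 members, and for 45 it overlapped the measured region. These windows had a median GC content of 64% and 27 CpG dinucleotides, against 62.3% and 23 for 4610 protein-coding genes of the table and 52.7% and 7 for all 32851 windows. A start of another gene on the opposite strand lay within 1 kb upstream of 7 of 45 members (15.6%) and of 17% of the protein-coding genes.

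Motifs were searched on both strands of these windows. The SP1 box GGGCGG was in 38 of 45 member windows (84.4%), in 74% of those of protein-coding genes and in 35.7% of all windows. The NF-Y letters CCAAT were in 28.9% of members, in 46.1% of protein-coding genes and in 37.4% of all windows. The ETS letters CCGGAAGT were in 8.89% of members, among them Stub1, Ube2n, Herc4 and Ube2f, and in 9.33% of protein-coding genes and 3.89% of all windows. The letters GCATGCGC, part of the NRF1 site, were in 8.89% of members, 6.05% of protein-coding genes and 2.71% of all windows. The YY1 letters AAGATGGCG were in 6.67% of members, 3.19% of protein-coding genes and 1.40% of all windows. The CRE TGACGTCA was in 4.44%, 3.82% and 1.79%, the E-box CACGTG in 4.44%, 10.0% and 7.15% and the AP-1 letters TGANTCA in 2.22%, 4.99% and 7.81%, in the same order. The NF-kB site was matched in 3 of 45 members, Rnf7, Ube2c and Ube3a (6.67%), in 9.93% of protein-coding genes and in 8.46% of all windows. All 3 of these promoters were within 2-fold in the Rela pair, as were 55 of all 64 member promoters. Only 2 of the higher and 2 of the lower member promoters had a window at the measured region. A link between the site and the differences was not tested.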

How the data were processed

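ATAC-seq was measured in 4 genotypes. Per the submitters' processing notes, which give no role or order, the authors' tools included DESeq2, MACS2, STAR 2.4.2a and Trimmomatic 0.33, with mm10 as the build. Treatment of the Tn5 cut site, duplicates and mitochondrial reads is not given in the sources used here. For each knockout there is 1 deposited table, and each genotype has 1 column in it. Deposited values were handled as a score: whole numbers that the authors corrected for background and normalized by the DESeq method, per the labels' table names. How replicates were combined is not stated.

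Regions with a mean signal of at least 1 entered, and log2 ratios used a pseudocount of 1, which understates differences of weak regions. The planned limma test needed replicate columns and could not be run. Counting intervals (Clopper-Pearson, scipy 1.17.1) used the scale factor read from rare and frequent whole values, 0.949 for Rela knockout, 0.683 for Rela wild type and 1.361 for Kindlin-2 floxed. No factor explained over 37.4% of the pattern for Kindlin-2 knockout, which was given 1. The method was tested on simulated data.

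The members and lists were chosen with earlier results of these data known. Named were every member promoter past 2-fold in the Rela pair, every member in the Kindlin-2 table and the strongest promoter of each role group. Also named were up to 4 genes past 2-fold in each other list, Usp34 and Tnfaip3 beside them, and further members to complete their groups. Sequences of Ube2q2, Ube2d1, Stub1, Siah1b and Fbxo4 are from RefSeq, GRCm38.p6. Alternatives were other pseudocounts, filters, promoter limits, scalings and centrings, and 1 region per gene. Single values of 2 members are not reported here.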

Additional observations from a re-analysis of the deposited data

How the results depend on the processing

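No paired analysis was possible because each genotype has 1 column and no replicate numbers. In the Rela pair, the 5 higher member promoters became 3 with a pseudocount of 5, 3 after quantile scaling and 2 when each region was centred on its 50 nearest, and otherwise numbered 4 or 5. The 4 lower ones numbered between 3 and 5, but these were not always the same promoters. Centred on the 50 nearest regions, Trim37 (-1.37) and Cul3 (-1.01) were past 2-fold, and Stub1 (-0.83) and Rhobtb2 (-0.28) were not. With each chromosome centred Trim37 (-1.08) was past 2-fold, and Stub1 (-0.98) and Rhobtb2 (-0.76) were not. Among the higher ones, Rnf7 (1.01) then passed 2-fold and Fancl (0.86) did not. In the Kindlin-2 pair, the 4 higher ones became 1 with a mean signal of at least 10, 2 after quantile scaling, 1 after loess scaling, 2 with each chromosome centred and 2 when centred on the 50 nearest regions. The 4 lower ones became 0 with a pseudocount of 5, 2 with each chromosome centred and 1 when centred on the 50 nearest. The median log2 ratio ran from 0.01 to 0.23 in the Rela pair and from -0.07 to 0.13 in the Kindlin-2 pair, where it was above 0 after quantile and loess scaling. Siah1b in the Rela pair turned to -0.20 when centred on the 50 nearest regions. Of the named promoters past 2-fold, 4 of 9 in the Rela pair (Park2, Ube2d1, Ube2q2 and the distant Cblb region) and 0 of 8 in the Kindlin-2 pair stayed so in every setting that gave them a value. The causes were not tested. A pseudocount of 5 draws weak regions towards no difference by its construction. The share of Rela-pair members past 2-fold was below that of protein-coding promoters in each setting compared, at 9.38% to 14.1% against 18.3% to 23.0%. In the Kindlin-2 pair it was above in each, at 12.5% to 33.3% against 10.4% to 19.1%, except with each chromosome centred (16.7% against 16.8%). A median Kindlin-2 floxed region rested on about 11.8 implied counts and a median Rela wild-type region on 49.8, which limits ratios in the Kindlin-2 pair. Intervals cover counting error only, not differences between cultures.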
